A study of Mus musculus with 6 samples.

Results

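The ubiquitin-conjugating enzymes, or E2s, were examined as the 34 genes of 23284 in the count tables whose symbol begins with Ube2, apart from 1 symbol that the choice of genes left out and that is not analysed here. Polyadenylated RNA had been sequenced from erythroblasts, the nucleated precursors of red cells, of C57BL/6 mouse embryos at E10.5. The cells were sorted as live cells carrying Ter119, an antigen of the red cell lineage, and CD71, the transferrin receptor; the labels name fetal liver and the design text names fetal blood. The null group had 3 libraries of genotype SETD8fl/fl EpoR Cre, in which a Cre recombinase at the Epor locus, active in erythroid cells, removes floxed Setd8. The control group had 3 libraries: control replicates 1 and 3 were Setd8 +/+ EpoRCre, and control replicate 2 was Setd8 fl/fl EpoR WT, without Cre. Whether a library came from 1 embryo or from several is not stated in the labels, so the tests measure the spread between these libraries, which may be technical in part.

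An E2 takes activated ubiquitin, or a ubiquitin-like protein such as SUMO, NEDD8 or ISG15, from an E1 enzyme on a cysteine and passes it, mostly together with an E3 ligase, to a target protein. The E2 has a large part in which kind of chain is built, and thereby in whether the target is degraded, relocated or used in DNA repair. Maturing red cells remove most of their proteins and organelles, and 2 E2s are known for rising at that time: Ube2h, which works with the CTLH ligase, and Ube2o, a large enzyme that combines E2 and E3 activity and acts on ribosomal and other proteins. Ube2l6, the E2 of the ISG15 system, is also abundant in red cell precursors.

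Of the 3 E2 genes called different between null and control, Ube2h and Ube2b had entries among RefSeq promoters (build GRCm38.p6) and Ube2o had none. The 250 bases before their annotated starts are shown, since these 2 genes moved in the same direction; Ube2h has 2 annotated starts, the second inside the gene. Ube2b also has a second start, whose window overlaps the transcribed region of the first and is not shown. Capitals mark matches, on either strand, to the GATA motif AGATAA and to the CACC motif CCNCNCCC, the short sequences bound by GATA and Krüppel-like factors of red cells.

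Ube2h, chr6:30304540-30304789, minus strand: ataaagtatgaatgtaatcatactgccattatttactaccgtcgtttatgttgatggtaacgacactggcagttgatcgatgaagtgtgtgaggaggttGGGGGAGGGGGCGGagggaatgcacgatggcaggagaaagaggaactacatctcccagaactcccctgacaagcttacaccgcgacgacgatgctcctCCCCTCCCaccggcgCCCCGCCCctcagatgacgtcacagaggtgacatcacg
Ube2h, chr6:30243804-30244053, minus strand: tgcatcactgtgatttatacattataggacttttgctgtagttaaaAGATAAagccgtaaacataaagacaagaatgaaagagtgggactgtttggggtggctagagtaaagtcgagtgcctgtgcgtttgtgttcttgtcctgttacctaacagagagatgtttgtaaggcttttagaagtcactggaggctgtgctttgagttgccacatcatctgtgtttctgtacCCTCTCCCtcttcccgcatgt
Ube2b, chr11:52000787-52001036, minus strand: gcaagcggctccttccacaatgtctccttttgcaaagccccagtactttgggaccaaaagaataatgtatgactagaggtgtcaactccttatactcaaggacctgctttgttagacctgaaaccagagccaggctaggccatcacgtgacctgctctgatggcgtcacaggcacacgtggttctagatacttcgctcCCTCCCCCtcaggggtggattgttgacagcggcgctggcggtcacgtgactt

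The first Ube2h window held 5 CACC matches, some of which overlap, and 0 GATA matches. The second Ube2h window held 1 of each, and the Ube2b window 1 CACC match; the Ube2b window not shown held 4. Among the 27 Ube2 genes with a promoter entry, 24 had a CACC match in a window of this length, against 48.5% of all genes with an entry, and 1, Ube2h, had a GATA match, against 11.4%. A gene was counted if any of its windows held a match, and the genes compared were not matched for base composition, expression or number of windows. These are counts of letters and show no binding.

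By title, there were 2 sets of libraries. Control replicates 1 and 2 and null replicate 1 had titles without a trailing letter (the unlettered set), and control replicate 3 and null replicates 2 and 3 had a letter (the lettered set). Counts assigned to genes ranged from 7756940 to 21434719 per library, and globin genes took 26.5% to 45.2% of them. Where a gene has 3 values for a group, they are in the order of replicates 1, 2 and 3. Values are given as CPM, counts scaled to 1000000 per library with TMM factors, and the main test was edgeR's quasi-likelihood test with the title set as a term beside group. Setd8, the targeted gene, stood at 73.9 and 74.8 CPM in the unlettered controls and 48.9 in the unlettered null library, and at 203.5 in the lettered control and 100.3 and 96.3 in the lettered null libraries. It fell by 0.83 in log2 units (adjusted p = 0.00911 by edgeR), and it did not pass with group as the only term (adjusted p = 0.702). Erythroid markers were high in every library, with a summed level of 348511 to 526714 CPM in controls and 214700 to 505302 in null cells. Of 11 tested, 0 were higher and 3 lower in null cells (Hba-x, Tfrc and Epor). Summed markers of other blood and vessel cells were low but higher in null cells. The 11 macrophage genes summed to 1.86 to 11.1 CPM in controls and 35.1 to 93.0 in null cells (3 of 7 tested called higher). The 6 megakaryocyte genes summed to 27.1 to 43.3 and 88.6 to 136.4 (2 of 5, Itga2b and Itgb3). Of the others, Gp9 was lower in every null library than in every control. Pf4 and Gp1bb overlapped, and Ppbp had reads in control replicate 3 alone. The 7 endothelial genes summed to at most 1.49 and to 5.74 to 20.0 (2 of 2, Pecam1 and Tek). Emcn had 0 reads throughout, Cdh5 had 1 read, and Tie1 had 7 reads in control replicate 3 and 1 in null replicate 3. Hepatic and mesenchymal genes summed to at most 3.95 CPM in any library, with Alb and Dcn at 0 reads throughout. Granulocyte and mast cell genes summed to at most 1.91 CPM among the controls against 1.08 to 66.3 among the null libraries, with Elane and Cpa3 at 0 reads throughout. Most of the highest sum was Mpo in null replicate 3, at 61.3 CPM. What part these other cells have in the E2 results was not tested, and in bulk RNA fewer cells of a type and less RNA per cell cannot be told apart. Y chromosome transcripts separated control replicates 2 and 3, where they were at or near 0, from the other 4 libraries.

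Of the 34 E2 genes, 31 passed the filter on low counts. Ube2dnl had no read in any library, Ube2u had 1 read, in control replicate 2, and Ube2ql1 had at most 2 reads in any library but null replicate 2, which had 33. The rule takes symbols, so it also holds Ube2cbp, now named Ube3d, whose product is described as an E3 ligase. The levels spanned a wide range. Ube2l6 alone made up 14.1% to 32.7% of all reads of the 34 genes in a library. Per kilobase of the longest coding transcript, control means of the tested genes ran from 613 CPM for Ube2l6 through 155 for Ube2v1, 108 for Ube2l3 and 82.4 for Ube2n down to 1.84 for Ube2d1, 0.982 for Ube2j2 and 0.306 for Ube2e2. Null means per kilobase put Ube2l6 first as well, at 414 CPM, followed by Ube2v1 at 123. The value of Ube2v1 is uncertain, since 83.2% of the 50-base stretches of its transcript also occur in other annotated genes and 69.1% of its exon bases lie in exons of other genes. For Ube2l3, 28.6% of exon bases overlap the gene Ydjc on the opposite strand, and the strand setting of the counting is not known.

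**Figure D1:**
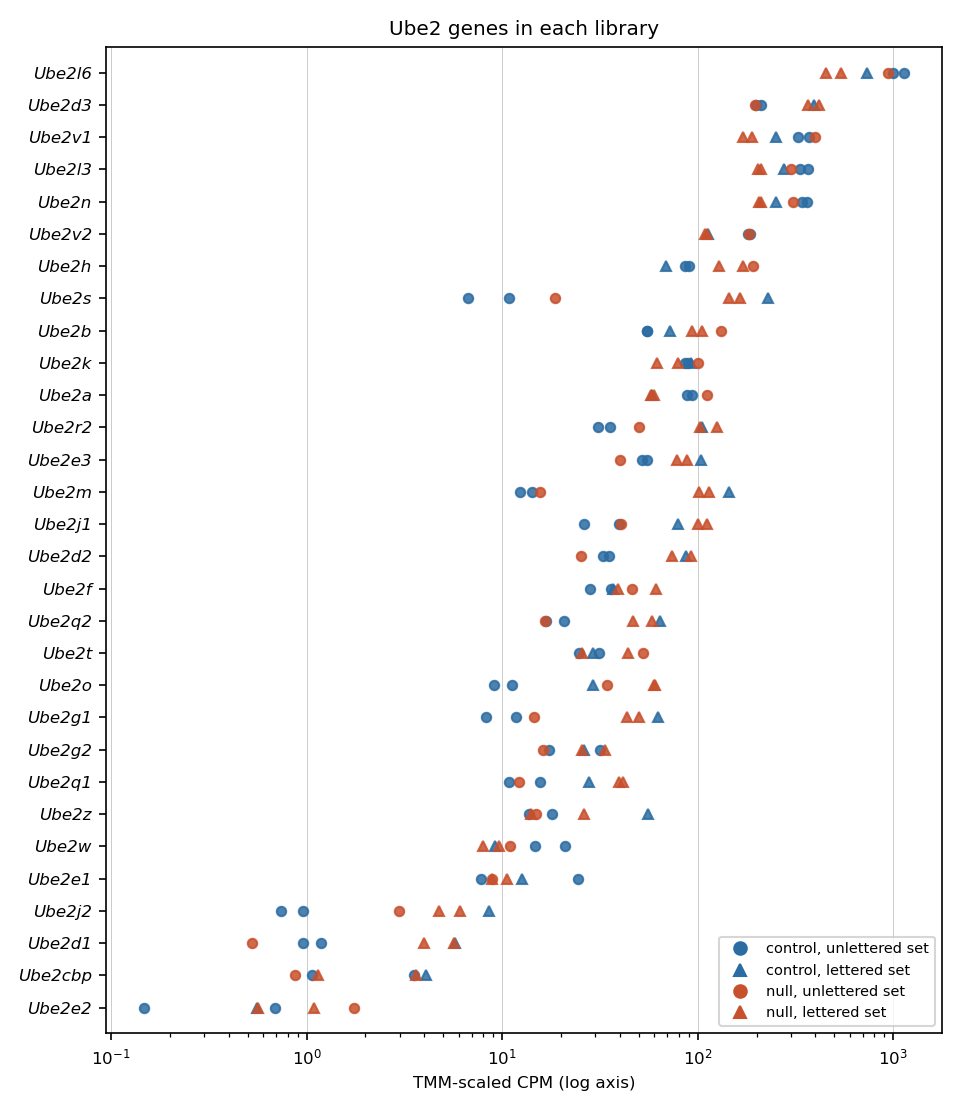
Levels of 30 of the 31 tested Ube2 genes in each of the 6 libraries, in TMM-scaled CPM on a log axis, ordered by level. Blue marks controls and orange null cells, circles the unlettered and triangles the lettered set. Ube2h, Ube2b, Ube2o and, by a small margin, Ube2f have all null points to the right of all control points, while Ube2s and Ube2m separate by title set.

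In null cells 3 E2 genes rose, Ube2o, Ube2h and Ube2b, and 0 fell. This is 9.68% of the 31 tested members called higher, beside 8.65% of all 10512 tested genes called higher and 4.16% called lower, so the share of E2 genes that rose was near the background. The median log2 ratio of null to control was -0.094 over the 31 genes and 0.044 over all tested genes. By DESeq2 the same 3 genes rose and 0 fell, beside 10.9% and 7.27% of all genes in that fit. At an unadjusted p under 0.05 by edgeR 3 further genes had lower values, beside 1205 of all 10512. With group as the only term none of the E2 genes passed, where 1.14% of all genes were higher and 0.00951% lower. In that fit 3 E2 genes had an unadjusted p under 0.05, beside 1641 of all 10512. The adjusted p by edgeR was 0.113 for Ube2h, 0.160 for Ube2b and 0.190 for Ube2o. Nor did any pass with sex, read from the Y transcripts, as a further term beside title set. In that fit 1.53% of all genes were higher and 0.59% lower. The log2 ratios there were 1.17 for Ube2h and 1.04 for Ube2b (adjusted p = 0.0763 and 0.156 by edgeR). Y transcripts marked all 3 null libraries and, of the controls, replicate 1 alone, so sex and group coincided in large part. The null libraries all exceeded the controls in 4 of the 31 genes, namely Ube2b, Ube2f, Ube2h and Ube2o, which was so for 14.9% of all tested genes. They were all below the controls in 0 of the 31, against 9.16% of all.

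Ube2h, the E2 of red cell maturation, measured 85.8, 89.8 and 68.9 CPM among the controls against 191.8, 170.2 and 128.6 among the null libraries. Every null library was above every control. Ube2h rose by 1.12 in log2 units (SE 0.17, 95% interval 0.75 to 1.50, adjusted p = 0.0017 by edgeR). The log2 ratio was 1.13 among unlettered and 1.10 among lettered libraries, so that both sets gave nearly the same size. Without null replicate 1, the unlettered set holds no null library, and the log2 ratio was 1.11 (adjusted p = 0.0611 by edgeR).

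Ube2o, the combined E2 and E3 enzyme, measured 11.3, 9.11 and 29.3 CPM among the controls against 34.4, 59.8 and 60.8 among the null libraries. The groups did not overlap, but null replicate 1 of the unlettered set was close to control replicate 3 of the lettered set. Within its own set each null library was clearly above the controls, with log2 ratios of 1.75 (unlettered) and 1.04 (lettered). Ube2o rose by 1.39 in log2 units (SE 0.25, 95% interval 0.84 to 1.95, adjusted p = 0.00451 by edgeR). Its level also differed between the sets, at a log2 ratio of unlettered to lettered of -1.16 (adjusted p = 0.0043). Without null replicate 1 the null to control log2 ratio was 1.03 (adjusted p = 0.170 by edgeR).

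Ube2b, a mammalian RAD6 protein that ubiquitinates histone H2B and the replication clamp PCNA with different ligases, measured 55.1, 54.7 and 71.7 CPM among the controls against 131.5, 104.8 and 93.3 among the null libraries. No null library overlapped a control. Ube2b rose by 0.86 in log2 units (SE 0.20, 95% interval 0.42 to 1.30, adjusted p = 0.0166 by edgeR). The within-set log2 ratios were 1.26 and 0.46, and the test of their difference gave an unadjusted p of 0.0298 and an adjusted p of 0.652 by edgeR. The call was lost without control replicate 1 (log2 ratio 0.78, adjusted p = 0.0729 by edgeR), control replicate 2 (0.78, 0.0680), null replicate 1 (0.46, 0.364) or null replicate 2 (0.84, 0.0685). Its close relative Ube2a, the X-linked RAD6 gene, measured 79.7 ± 18.9 CPM among the controls against 76.5 ± 30.7 among the null libraries (SD, n = 3 each) and did not pass. Its log2 ratio of 0.16 had a 95% interval from -0.22 to 0.54.

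**Figure D2:**
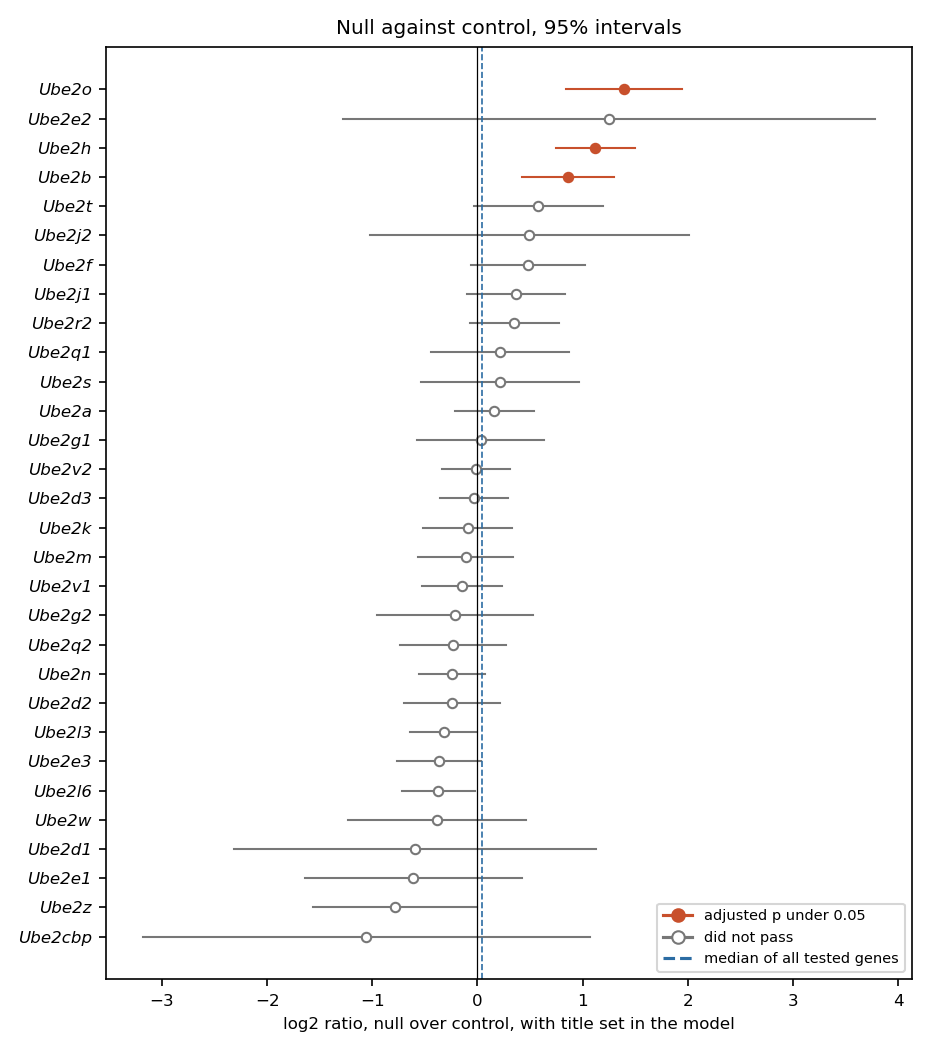
Log2 ratio of null to control for 30 of the 31 tested Ube2 genes with the title set in the model; bars are 95% intervals. Filled orange points passed at an adjusted p under 0.05 (Ube2o, Ube2h and Ube2b), open grey points did not, and the dashed line is the median of all tested genes at 0.044.

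The other 28 tested E2 genes did not pass. For 19 of them the 95% interval of the log2 ratio lay between -1 and 1, so that a change of 2-fold or more was outside the interval, and for 9 it reached further. The widest intervals belonged to genes with few reads: Ube2e2 with 0.466 ± 0.283 CPM among the controls against 1.13 ± 0.596 among the null libraries, with an interval from -1.28 to 3.78, and Ube2cbp at 2.90 ± 1.62 and 1.89 ± 1.53, with an interval from -3.18 to 1.07 (SD, n = 3 each).

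Ube2l6, which carries ISG15, was the most abundant E2 and measured 1134, 997 and 736 CPM among the controls against 940, 454 and 542 among the null libraries. Null replicates 2 and 3 were the lowest of all 6 libraries, and null replicate 1 lay between the controls. The log2 ratio was -0.37 (95% interval -0.72 to -0.026, adjusted p = 0.151 by edgeR), and Ube2l6 did not pass. Its modifier Isg15 had a different course, at 1.33, 0.479 and 1.12 CPM in the controls and 37.1, 18.8 and 9.46 in the null libraries, and rose by 4.55 in log2 units (SE 0.58, adjusted p = 0.000588 by edgeR). The ISG15 E1 enzyme Uba7 measured 105.5, 121.0 and 108.4 CPM among the controls against 126.3, 146.4 and 136.8 among the null libraries. Each null library was above every control, which was so for 14.9% of all tested genes, and Uba7 did not pass (log2 ratio 0.27, adjusted p = 0.316 by edgeR). Of 6 genes listed for the ISG15 pathway, 4 were tested. Among these 1 rose, Isg15, and 0 fell, beside 8.65% and 4.16% of all tested genes. The ligase Herc6 and the ISG15 protease Usp18 were at or below 1.34 CPM in every library.

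Among the E2s of ubiquitin-like modifiers, Ube2f, which passes NEDD8 to cullin ligases, measured 28.0, 36.2 and 37.0 CPM among the controls against 46.1, 61.4 and 39.3 among the null libraries. All null libraries were above all controls, null replicate 3 only slightly, and Ube2f did not pass (log2 ratio 0.48, adjusted p = 0.234 by edgeR). Ube2m, the other NEDD8 E2, had a log2 ratio of -0.11. Ube2z, which works with the E1 Uba6, had the lowest ratio of the 5 genes in this class, -0.79 with an interval from -1.57 to -0.0043 and adjusted p = 0.177 by edgeR. That value rests on the lettered set, where control replicate 3 stood at 55.4 CPM and null replicates 2 and 3 at 14.0 and 26.3; in the unlettered set the controls were at 17.9 and 13.8 and the null library at 14.9.

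Of the 8 E2s that start chains or serve many ligases, 0 rose and 0 fell, and the log2 ratios ran from -0.61 for Ube2e1 to 1.25 for Ube2e2. Ube2d3, the most abundant member of the Ube2d family, had 268 ± 110 CPM among the controls against 327 ± 116 among the null libraries, and Ube2d2 51.6 ± 30.5 and 63.8 ± 34.7 (SD, n = 3 each). The log2 ratios with the title set in the model were -0.032 and -0.24, while the plain means were higher in null cells; both genes were higher in the lettered set, which holds 2 null libraries and 1 control. Ube2l3, the E2 of HECT and RBR ligases, had a log2 ratio of -0.32 (interval -0.64 to -0.0020, adjusted p = 0.177 by edgeR).

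Besides Ube2b, the 6 genes of DNA repair and signalling chains held 0 that passed. Ube2n, known as Ubc13, and its catalytically inactive partners Ube2v1 and Ube2v2 had log2 ratios of -0.24, -0.15 and -0.016. Ube2t, the E2 of the Fanconi anemia pathway, measured 24.7, 31.1 and 29.3 CPM among the controls against 52.5, 25.5 and 44.2 among the null libraries, with overlapping groups (log2 ratio 0.58, adjusted p = 0.206 by edgeR). Of the 6 E2s of degradation chains and of the endoplasmic reticulum (Ube2g1, Ube2g2, Ube2j1, Ube2j2, Ube2k and Ube2r2), 0 passed, with log2 ratios from -0.21 to 0.49. Ube2s, which extends chains on targets of the anaphase-promoting complex in mitosis, measured 10.8, 6.66 and 230 CPM among the controls against 18.7, 165 and 144 among the null libraries. The null library was above the controls in the unlettered set, and both null libraries were below the control in the lettered set, at log2 ratios of 1.13 and -0.57.

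**Figure D3:**
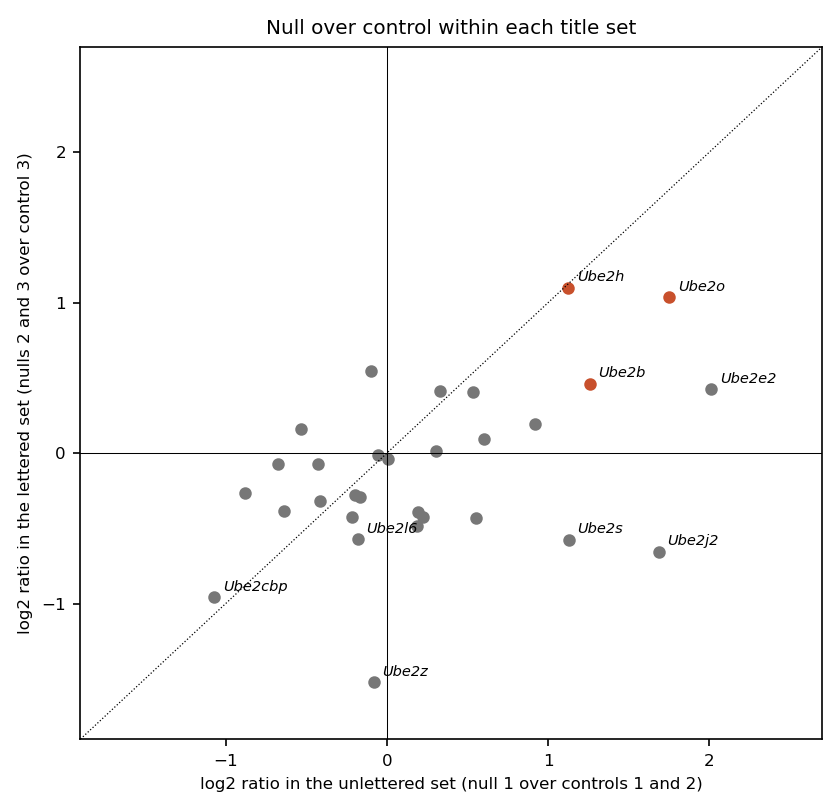
Log2 ratio of null to control within the unlettered set (x axis) and within the lettered set (y axis) for 30 of the 31 tested Ube2 genes; the sets share no library and the dotted line marks equal ratios. Ube2h lies on the line at 1.13 and 1.10, and the called genes are in orange.

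Since the sets shared no library, each gives its own comparison of null and control. The direction was the same in both for 22 of the 31 E2 genes, 9 higher and 13 lower, which is 71.0% beside 68.6% of all tested genes. Only Ube2h and Ube2o had a log2 ratio above 0.5 in both sets, and 1 gene, the weakly counted Ube2cbp, was below -0.5 in both. The difference between the set ratios was tested as an interaction. None of the 31 E2 genes passed by edgeR, beside 0.00951% of all tested genes. An unadjusted p under 0.05 was found for 3 of them (Ube2s at 0.00157, Ube2v1 at 0.0259 and Ube2b at 0.0298), beside 758 of all 10512. With 2 residual degrees of freedom this test has little precision, and without the filter on low counts Ube2s passed.

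More E2 genes differed between the title sets than between the groups. With group in the model, 19 of the 31 E2 genes (61.3%) differed between the sets, 6 higher and 13 lower in the unlettered set, beside 10.9% and 17.7% of all tested genes. The largest differences were those of Ube2s, with a log2 ratio of unlettered to lettered of -3.88 (SE 0.37, adjusted p = 4.55e-05 by edgeR), and Ube2m, at -3.11 (SE 0.22). For Ube2m the unlettered libraries measured 14.2 and 12.4 CPM (controls) and 15.5 (null), the lettered ones 144 (control), 114 and 101 (null). Within either group, every lettered library was thus far above every unlettered one. Higher in the unlettered set were Ube2a, Ube2l3, Ube2l6, Ube2n, Ube2v1 and Ube2v2, by log2 ratios of 0.44 to 0.81. Ube2h and Ube2b did not pass for a set difference, at log2 ratios of 0.36 and 0.015.

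**Figure D4:**
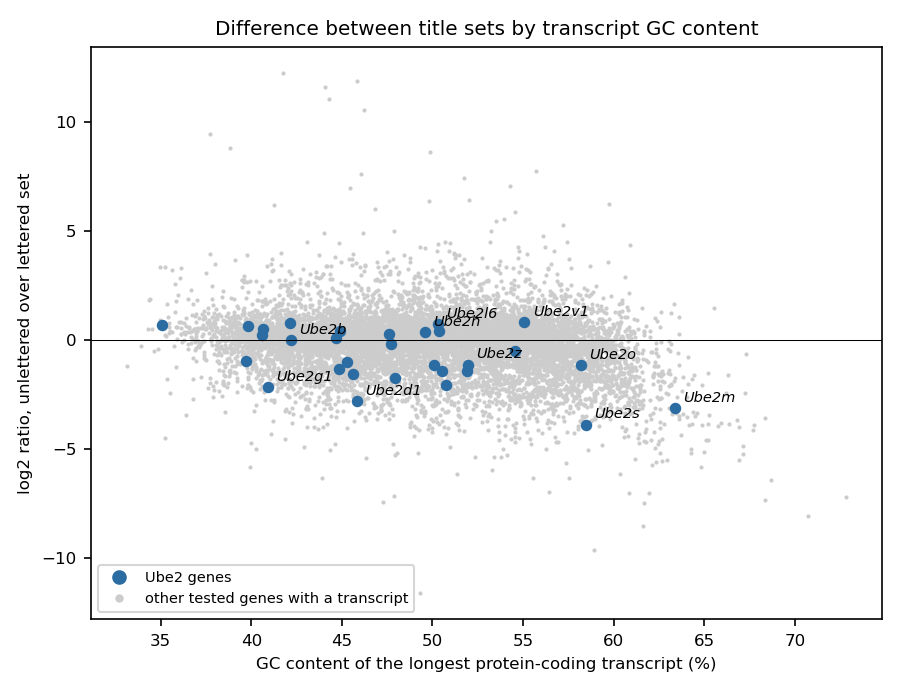
Log2 ratio of the unlettered to the lettered set (y axis) against the GC content of the longest protein-coding transcript in percent (x axis), for the tested genes with an annotated transcript; Ube2 genes are in blue and other genes in grey. Ube2m, at 63.4% GC, and Ube2s, at 58.5%, are the lowest of the Ube2 genes.

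The set difference was correlated with the base composition of the transcripts, weakly over all genes. Ube2m had the highest GC content of the tested E2 genes, 63.4%, Ube2s had 58.5% and Ube2o 58.2%, while Ube2v2, higher in the unlettered set, had the lowest, 35.1%. Across the 31 E2 genes Pearson's r between GC content and the set log2 ratio was -0.453 (Spearman's rho -0.372), and across 10032 tested genes with a transcript -0.212 (-0.191). Genes are not independent replicates, and all points come from the same 6 libraries. Over all genes the median set log2 ratio was 0.14 for transcripts up to 45% GC, 0.058 from 45% to 50% and 0.0079 from 50% to 55%. It was -0.39 from 55% to 60% and -1.68 above 60%, a class of 383 genes. GC content had a weaker relation with the null to control ratio, at r = 0.165 over the E2 genes and 0.103 over all. The part of base composition in any of these values was not tested. Ube2d1 and Ube2g1, at 45.8% and 40.9% GC, were also far lower in the unlettered set (log2 ratios -2.80 and -2.15). Ube2v1, at 55.1% GC, was the tested E2 gene most raised in the unlettered set (log2 ratio 0.81).

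Ube2h works with the CTLH ligase, a ring-shaped complex built from RING subunits (Maea, Rmnd5a and Rmnd5b), scaffold proteins and substrate receptors. Of its 11 listed genes, all tested, 2 rose and 1 fell, beside 8.65% and 4.16% of all tested genes. Ypel5, a small subunit of the complex, measured 57.2, 24.4 and 39.9 CPM among the controls against 275, 183 and 159 among the null libraries. The groups were far apart, and Ypel5 rose by 2.43 in log2 units (SE 0.30, adjusted p = 0.000672 by edgeR), also with group as the only term. Ranbp10, a scaffold and receptor subunit, measured 20.9, 14.4 and 34.0 CPM among the controls against 41.3, 69.0 and 48.2 among the null libraries, without overlap, and rose by 1.01 (SE 0.26, adjusted p = 0.0260 by edgeR). Gid4, a substrate receptor listed in the tables as 4933439F18Rik, measured 63.7, 44.9 and 53.9 CPM among the controls against 23.8, 21.9 and 31.2 among the null libraries, without overlap, and fell by 1.10 (SE 0.25, adjusted p = 0.0158 by edgeR). The RING subunit Maea had a log2 ratio of -0.56 and Rmnd5b 0.61, and neither passed by edgeR; DESeq2 called Maea lower. Over the 11 genes the log2 ratios had a median of -0.0055. Of these genes 2 were higher (Ypel5 and Ranbp10) and 3 lower (Gid4, Maea and Armc8) in every null library than in every control. This was so for 14.9% and 9.16% of all tested genes. Of the 6 fits that left out a library, Ypel5 was called in 5 (not without null replicate 1), Gid4 in 3 and Ranbp10 in 1 (without null replicate 3).

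**Figure D5:**
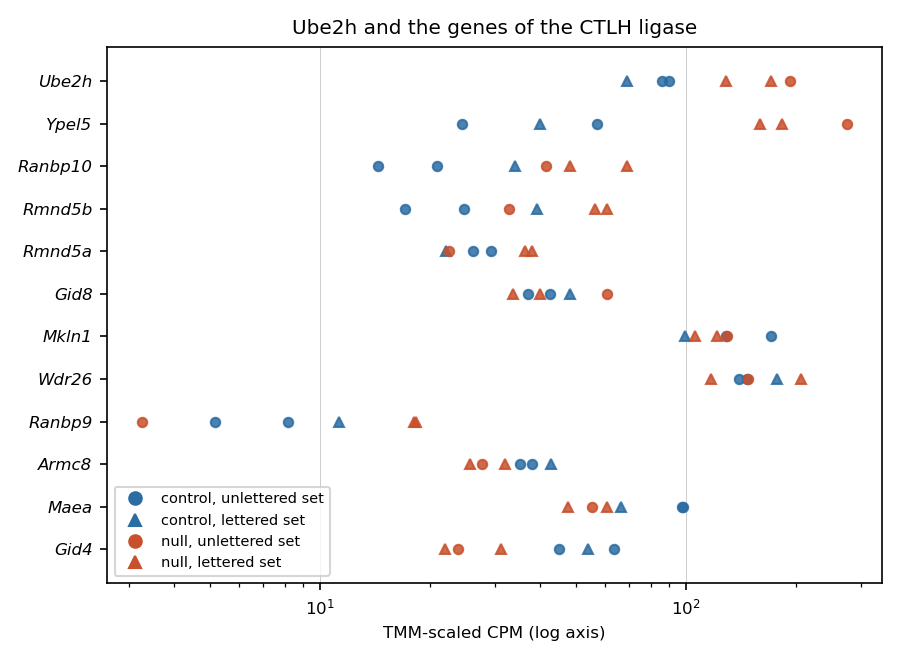
Ube2h and the 11 listed genes of the CTLH ligase in each library, in TMM-scaled CPM on a log axis; colours mark the group and shapes the title set. Ube2h, Ypel5 and Ranbp10 lie higher and Gid4, Maea and Armc8 lower in all 3 null libraries than in all 3 controls.

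Over all 100 listed genes of the pathway around the E2s (modifiers, E1s, E2-like genes of other names and partner ligases), 98 were tested, 5 rose and 4 fell, with a median log2 ratio of -0.21 beside 0.044 for all tested genes. At these shares, 5 and 4 of 98 stand beside 8.65% and 4.16% of all genes. Besides Isg15, Ypel5 and Ranbp10, the ubiquitin gene Ubb rose, from 1005, 1121 and 727 CPM in controls to 1935, 1178 and 950 in the null libraries (adjusted p = 0.0138 by edgeR, log2 ratio 0.71, SE 0.16); within each set the null libraries were above the controls, while over all libraries the groups overlapped. Cdc34, the E2 of SCF ligases and the relative of Ube2r2, measured 35.4, 43.2 and 207 CPM among the controls against 97.4, 276 and 226 among the null libraries, and rose by 0.78 (SE 0.22, adjusted p = 0.0372 by edgeR). Of the 6 fits without 1 library, Isg15 was called in 5 (not without null replicate 1), and Ubb and Cdc34 in 2 each (without control replicate 3 or null replicate 3). Cdc34 had log2 ratios of 1.31 among unlettered and 0.27 among lettered libraries (unadjusted p of the difference 0.00752, adjusted 0.568 by edgeR). Without null replicate 1 its ratio was 0.27 and without control replicate 3 it was 1.29, and it was not called with globin genes left out. Of 9 E1 genes 0 rose and 0 fell. At an unadjusted p under 0.05 by edgeR 2 had lower values, beside 1205 of all 10512 tested genes. By DESeq2 the E1 genes Sae1 and Uba6 were lower.

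Among 12 genes of the Fanconi pathway, in which Ube2t acts, 0 rose and 2 fell, both of the pair that removes ubiquitin from its targets; DESeq2 also called Fanci lower. The protease Usp1 measured 63.1, 57.4 and 155 CPM among the controls against 24.5, 70.1 and 73.3 among the null libraries, and fell by 1.20 in log2 units (SE 0.18, adjusted p = 0.00157 by edgeR). Over all libraries the groups overlapped, and within the sets the log2 ratios were -1.29 (unlettered) and -1.11 (lettered). Usp1 also differed between the sets, at a log2 ratio of unlettered to lettered of -1.46 (adjusted p = 9.17e-05 by edgeR). With group as the only term Usp1 did not pass (adjusted p = 0.620 by edgeR). Its call held in each of the 6 fits without 1 library, that of Wdr48 in 2 and that of Dcun1d2 in 3. Its cofactor Wdr48 measured 54.7, 48.3 and 42.0 CPM among the controls against 23.6, 25.6 and 23.7 among the null libraries, without overlap, and fell by 0.95 (SE 0.23, adjusted p = 0.0221 by edgeR). Of 13 cullin neddylation genes, partners of Ube2m and Ube2f, 1 fell: Dcun1d2, a NEDD8 ligase subunit, from 20.6, 25.3 and 24.6 CPM to 4.15, 15.5 and 11.4 (log2 ratio -1.64, SE 0.43, adjusted p = 0.0276 by edgeR). Its log2 ratio was -2.43 among unlettered and -0.89 among lettered libraries (unadjusted p of the difference 0.0382, adjusted 0.684 by edgeR). At an unadjusted p under 0.05 by edgeR, 7 of the 13 had lower values, beside 1205 of all 10512 tested genes. DESeq2 called 4 lower, Dcun1d2 and the cullins Cul1, Cul2 and Cul3, beside 7.27% of all genes in that fit. None of the 12 anaphase-promoting complex, 5 SUMO ligase, 10 RAD6 and Ubc13 ligase or 6 endoplasmic reticulum ligase genes passed by edgeR; at an unadjusted p under 0.05 there were 2, 2, 0 and 0. DESeq2 called Anapc1, Pias1 and Pias2 of these lists, all lower.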

How the data were processed

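Each library came as a table of raw read counts per gene symbol, deposited by the authors without normalization. Per the submitters' processing notes, FastQC, Trimmomatic 0.32, TopHat2 2.1.0, HTSeq 0.6.1 and edgeR were used with build mm9; their order, options and strand setting are not stated in these sources. The 3 unlettered tables held 25 symbols turned into dates, which were mapped back, and summary lines, which were left out (reads without a feature were 42.9%, 7.72% and 6.07% of control replicates 1 and 2 and null replicate 1). The 6 libraries of 3 and 3 samples entered edgeR 4.0.16 under R 4.3.3: filterByExpr (minimum count 10), TMM, estimateDisp, glmQLFit (robust) and glmQLFTest with title set and group as terms, 2-sided, Benjamini-Hochberg over 10512 genes at 0.05, 3 residual degrees of freedom. DESeq2 1.42.0 was an alternative. Scripts were tested on simulated counts. Within-set ratios use log2 CPM with a prior count of 2; 3 reads equal 0.140 to 0.445 CPM. No same-group libraries were duplicates (chi-square per degree of freedom 21.9 to 369.1). GC content, length and shared 50-base stretches come from GENCODE M21 (GRCm38), not the build of the files. Every member called is given by library, with Ube2h, Ube2o and Ube2l6 in any case, and up to 2 called genes per list and direction. The members and lists were chosen with earlier results of these data known. Of the genes tested, 1 Ube2 gene is counted in the totals and is not reported here by name.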

Additional observations from a re-analysis of the deposited data

How the results depend on the processing

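Ube2h, Ube2o and Ube2b rose under both other scalings, without globin genes, without the filter and by DESeq2. No E2 gene rose with group as the only term (0) or with title set and sex as terms (0; 3 at an unadjusted p under 0.05 in each, edgeR), and 0 to 3 rose without 1 library, 0 of them without null replicate 1. The count of E2 genes that fell was 0 in every edgeR fit and by DESeq2, with 0 to 4 at an unadjusted p under 0.05. Of the pathway genes, 2 rose with group alone, 0 with title set and sex (5 at an unadjusted p under 0.05), and 0 to 5 without 1 library; 0 fell with group alone (6 at an unadjusted p under 0.05), 1 with title set and sex, 10 without the filter (3.8% of all genes in that fit), 15 by DESeq2 (7.27%), and 1 to 10 without 1 library, the highest without null replicate 3 (6.68%), beside 4.16% in the main test. Without control replicate 1, 2 pathway genes rose and 1 fell, without control replicate 2 or null replicate 2, 2 rose, and without null replicate 1, 0 rose and 1 fell. Without the filter the null effect on 1 E2 gene, Ube2s, differed between the sets. The cause of these differences was not tested. Single-gene values were recomputed for the tested E2 genes and the pathway genes called in the main test, 520 in total. Of these, 53 lost their call, 0 gained one and 0 reversed a call. A further 30 differed in sign from the main test, with a call in neither. Only the 3 E2 genes and the 5 and 4 pathway genes called in the main test could lose a call. Pathway genes not called there were not among the 520, so calls they gained, as by DESeq2, are not counted. No paired analysis was possible because the labels give no replicate numbers shared between groups. Fewer reads limit Ube2e2, Ube2d1, Ube2j2 and Ube2cbp most.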

Other observations

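Ube2ql1 failed the filter on low counts, with 0, 0 and 2 reads among the controls against 0, 33 and 1 among the null libraries, each in replicate order. The 33 reads of null replicate 2 correspond to 1.69 CPM, and no other library exceeded 0.0930 CPM.

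Birc6, a very large E2-like protein that blocks caspases, measured 113, 108 and 17.6 CPM among the controls against 59.0, 8.11 and 21.7 among the null libraries, with unlettered libraries above all lettered ones.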
